A study of Sorghum bicolor with 63 samples.

Results

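NLP6 (SORBI_3003G003600), NLP17 (SORBI_3002G287400) and HSF20 (SORBI_3006G182800) are 3 transcription factor (TF) genes among the 35567 genes of the sorghum expression tables. They were chosen by gene ID, with the paper's results from these data known. In the network that the study projected from maize onto sorghum, HSF20 is drawn as a regulator of NLP17. Each of the 3 has targets in nitrate uptake or assimilation. NIN-like proteins (NLPs) are TFs with an RWP-RK DNA-binding domain and a PB1 domain through which they pair with other proteins. In Arabidopsis, NLP7 senses nitrate and is held in the nucleus while nitrate is present, where NLPs activate genes of nitrate transport and reduction. Heat shock factors (HSFs) are TFs known above all for switching on chaperone genes in heat, and plant genomes hold many of them.

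All plants were Sorghum bicolor of genotype BTx623, raised in hydroponic culture with nitrate supplied. The sampled groups were 0 h (nitrate supplied), 0.5, 3 and 24 h after transfer to a solution without nitrate salts, then 24.5 and 48 h with nitrate returned, and a group labelled as the recovery control at 48 h, for which no further description is given. Leaf, lateral root and primary root each had 3 libraries of pooled plants per group, 21 per tissue and 63 in all. The labels' protocol names Hoagland solution and the paper Magnavaca's solution, and they also differ in the salts exchanged and in the interval between returned nitrate and the last harvest, so 48 h is used here only as the name of the group. The time of day changed together with the hours since transfer, and the effects of the 2 cannot be told apart at 0.5 and 3 h. No group is described as handled in the same way with nitrate unchanged. Effects of handling and of nitrate therefore cannot be told apart at 0.5 or 24.5 h either.

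Expression is given in TPM, a length-corrected share of all transcripts scaled to the same total in each library, which allows levels of different genes to be set side by side. TPM hold no read counts, so depth is unknown, and precision was judged by how far the 3 libraries of a group lay from each other. A gene was called changed where the limma fit of log2(TPM + 1) gave a Benjamini-Hochberg adjusted p under 0.05 over all genes tested and an absolute log2 change over 1. All 3 genes passed the filter of at least 1 TPM in at least 3 libraries in every tissue. Tissue was bulk material, in which fewer cells of a type and less RNA per cell cannot be told apart.

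3 libraries stood apart from the others of their group. Lateral root 0 h replicate 1 correlated with its own group at a mean r of 0.731. Its nearest neighbour was leaf 48 h control replicate 3 (r = 0.994), and it was in turn the nearest to leaf 48 h control replicates 2 and 3. It held 30934 TPM of 4 leaf marker genes, against 16.9 to 318 TPM in the other 20 lateral root libraries. 4 nitrate transport genes taken as root markers summed to 3.61 TPM in it, against 54.9 to 2871 TPM in the other 20. Leaf 48 h control replicate 1 had the lowest mean r with its group in leaf (0.968) and the lowest sum of leaf markers (15993 TPM, against a leaf median of 36883 TPM). Primary root 24.5 h replicate 3 had 30736 genes at 1 TPM or more, against a tissue median of 21306, and 2575 TPM of leaf markers, against a median of 99.0 TPM. For the 3 genes, most values that rest on these libraries are given with and without them, and the labels were kept.

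NLP6 was the most abundant of the 3 in every tissue. It ran between 44.2 and 169 TPM in leaf (median 118), between 71.0 and 172 TPM in lateral root (median 95.1; 94.1 without 0 h replicate 1), and between 57.9 and 108 TPM in primary root (median 75.9). NLP17 ran between 2.51 and 19.9 TPM in leaf (median 6.59), between 4.52 and 64.4 TPM in lateral root (median 19.5; lowest 6.99 and median 20.4 without 0 h replicate 1), and between 4.02 and 34.2 TPM in primary root (median 16.7). HSF20 was low throughout, at 0.776 to 8.91 TPM in leaf (median 4.59), 0.369 to 4.45 TPM in lateral root (median 1.89) and 0.476 to 15.7 TPM in primary root (median 2.51). It was under 1 TPM in 3 libraries of leaf, 4 of lateral root and 3 of primary root.

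Averaged over the 6 groups other than 0 h, NLP17 was lower in leaf than in lateral root by a log2 difference of -1.50 (SE 0.15, adjusted p = 2.06e-12). It was the 1 call among the 9 pairs of gene and tissue contrast, where 50.9% of the 18323 genes tested in all tissues passed and the median gene differed by -0.67. The fold threshold was no longer met with median-of-ratios scaling (-0.77) or quantile normalization (-0.90). Against primary root, NLP17 differed by -0.91 in leaf (adjusted p = 6.57e-07) and by 0.59 in lateral root (adjusted p = 0.00159). NLP6 differed by 0.54 in leaf (adjusted p = 1.29e-09) and by 0.40 in lateral root (adjusted p = 7.18e-06) against primary root, also short of the fold threshold. Between leaf and primary root the median gene differed by -0.61, and the values depended on the setting. Under the alternatives NLP17 ran between -0.99 and -0.26 there, with a limma adjusted p of up to 0.0507. NLP6 ran between 0.54 and 1.25 and was called in 1 of them. HSF20 did not differ detectably between leaf and primary root (0.07, SE 0.17, adjusted p = 0.684). It differed by 0.51 in leaf against lateral root (adjusted p = 0.00554) and by -0.44 in lateral against primary root (adjusted p = 0.0343). Both were short of the fold threshold, and the first ran between 0.42 and 1.07 under the alternatives. Here 49.7% of genes passed between leaf and primary root and 3.11% between lateral and primary root.

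**Figure D1:**
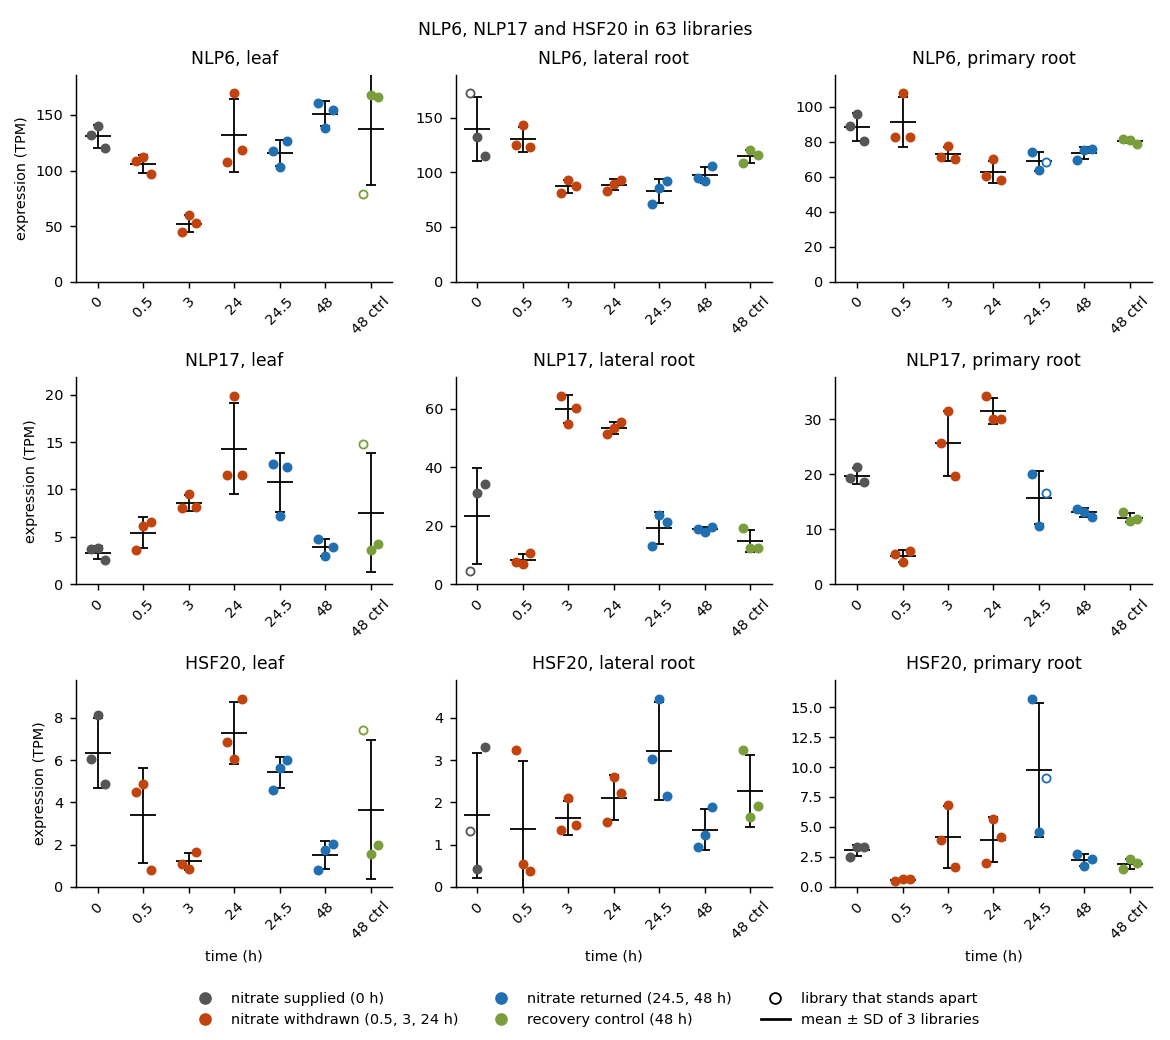
TPM of NLP6, NLP17 and HSF20 (rows) in leaf, lateral root and primary root (columns) at each time, with groups evenly spaced and not to scale in hours. Points are libraries, the bar and whiskers are the mean and SD of 3 libraries, and open points are the libraries that stood apart. NLP17 sat between 4.02 and 6.12 TPM in primary root at 0.5 h, and NLP6 between 44.2 and 59.5 TPM in leaf at 3 h, each below every other library of its tissue.

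NLP17 fell within 0.5 h of nitrate withdrawal in primary root, and in lateral root once the library that stood apart was left out, and by 3 h it had risen over its 0.5 h level in both roots. In primary root it read 5.44, 4.02 and 6.12 TPM at 0.5 h, against 19.3, 21.2 and 18.6 TPM at 0 h. The 2 groups were far apart, and the fall was -1.75 on the log2 scale (SE 0.19, adjusted p = 1.72e-05), 0.264 times the 0 h mean. 2 of the 3 genes fell in this comparison, in which 5.37% of the 23186 genes tested passed and 3.14% of those tested were lower. The call held when any 1 of the 6 libraries was left out, with changes between -1.86 and -1.61.

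In lateral root, NLP17 read 7.44, 6.99 and 10.6 TPM at 0.5 h, against 4.52, 31.2 and 34.3 TPM at 0 h. The 4.52 TPM belonged to the library with leaf-like markers, and it alone made the groups overlap. With it, the difference was -1.002 (SE 0.47, adjusted p = 0.177) and was not called, while 8.65% of all genes were. Without it, NLP17 fell by 1.87 on the log2 scale (SE 0.22, adjusted p = 1.85e-05), and was the 1 gene of the 3 to pass among 8.83% of all genes. With all libraries the call depended on scaling, since the change was -1.20 with median-of-ratios scaling (adjusted p = 0.0352) and -1.28 with quantile normalization (adjusted p = 0.0219).

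At 3 h of withdrawal NLP17 stood at 64.4, 54.98 and 60.3 TPM in lateral root, its highest group mean in any tissue (59.9 ± 4.7 TPM, SD, n = 3). Against 0.5 h, whose mean was 8.34 ± 2.0 TPM, this was a rise of 2.72 (SE 0.47, adjusted p = 0.0015; adjusted p = 5.93e-08 without 0 h replicate 1), or 7.18 times the 0.5 h mean. Here 5.05% of genes passed, and 9.46% without that library. In primary root the 3 h libraries had 25.8, 31.4 and 19.6 TPM, against 5.44, 4.02 and 6.12 TPM at 0.5 h, a rise of 2.09 (SE 0.19, adjusted p = 6.55e-06) where 4.63% of genes passed, 2.47% of all genes in this direction. The groups did not overlap in either root, and no library left out ended either call. This comparison was added after the values had been seen.

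Against 0 h, the calls of NLP17 at 3 and 24 h in lateral root rested on the library that stood apart. NLP17 had 51.6, 53.3 and 55.5 TPM at 24 h in lateral root, above all of the 0 h libraries. With all libraries the changes were 1.72 at 3 h (adjusted p = 0.0329) and 1.56 at 24 h (adjusted p = 0.0423), and 6.87% and 9.43% of genes passed at these times. Without 0 h replicate 1 they were 0.85 (SE 0.22, adjusted p = 0.0132) and 0.69 (SE 0.22, adjusted p = 0.0381), short of the fold threshold, while 7.54% and 8.21% of genes were called. Leaving out any 1 library of 3 h gave an adjusted p between 0.0739 and 0.106 at 3 h, and any 1 library of 24 h between 0.101 and 0.108 at 24 h. In primary root the change was 0.34 at 3 h (adjusted p = 0.255, 4.22% of genes) and 0.65 at 24 h (SE 0.19, adjusted p = 0.0393, 4.5% of genes), with 34.2, 30.1 and 30.1 TPM at 24 h against 19.3, 21.2 and 18.6 TPM at 0 h. The 24 h groups did not overlap and the change stayed under the fold threshold.

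0.5 h after nitrate was returned, NLP17 stood at lower levels than at 24 h in both roots. Lateral root had 13.1, 23.6 and 21.3 TPM at 24.5 h, against 51.6, 53.3 and 55.5 TPM at 24 h. The groups were well separated and the difference was -1.46 (SE 0.47), but the spread of the shared fit, which includes the 0 h library that stood apart, left it at an adjusted p of 0.183 (1.41% of genes passed). Without that library the same difference had SE 0.20 and passed (adjusted p = 0.000109), where 3.68% of genes did. Primary root had 19.99, 10.6 and 16.7 TPM at 24.5 h, against 34.2, 30.1 and 30.1 TPM at 24 h. This change sat just inside the fold threshold at -0.9963 (SE 0.19, adjusted p = 0.0045) and was not called, and it was -1.06 and called (adjusted p = 0.00971) without 24.5 h replicate 3, where 3.5% of genes passed.

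NLP17 did not stay at its deprivation level. At 48 h it had 19.0, 17.7 and 19.5 TPM in lateral root and 13.8, 13.2 and 12.2 TPM in primary root, close to the 48 h control at 19.3, 12.5 and 12.5 TPM in lateral root and 13.1, 11.5 and 11.8 TPM in primary root. The difference from the control was 0.35 (SE 0.47, adjusted p = 1) in lateral root, where 0.298% of genes passed, and 0.10 (SE 0.19, adjusted p = 0.997) in primary root, where 0.487% did. Between 48 h and 24 h, NLP17 fell by 1.21 in primary root (adjusted p = 0.00072; 4.73% of genes passed). In lateral root this difference was -1.46, with an adjusted p of 0.133 with all libraries and of 6.16e-05 without 0 h replicate 1 (7.16% passed; 2.12% with all libraries). In primary root NLP17 differed from 0 h by -0.56 at 48 h (adjusted p = 0.0841, 3.4% of genes) and by -0.66 in the control (adjusted p = 0.0782, 1.47%), with no overlap in either and no call. Between 24 h and the 48 h control, NLP17 was higher at 24 h by 1.81 in lateral root (adjusted p = 0.0355, 3.62% of genes) and by 1.31 in primary root (adjusted p = 0.000437, 3.64%). Leaving out 5 of the 6 libraries of that lateral root comparison in turn raised its adjusted p to between 0.0982 and 0.14, whereas it was 6.75e-06 without 0 h replicate 1 (8.72% passed).

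The order of NLP17 levels in lateral root without 0 h replicate 1 was 3 h, 24 h, 0 h, 24.5 h, 48 h, 48 h control and 0.5 h. The libraries of 3 h and 24 h overlapped, as did those of 24.5 h, 48 h and the control, and the steps from 24 h to 0 h, from 0 h to 24.5 h and from the control to 0.5 h were free of overlap. In primary root the order was 24 h, 3 h, 0 h, 24.5 h, 48 h, 48 h control and 0.5 h, and only the last step was free of overlap between neighbours. Without 0 h replicate 1, the lateral root control at 48 h was also below 0 h (-1.12, SE 0.22, adjusted p = 0.00291, 6.77% of genes), and with that library the difference was -0.25 (adjusted p = 0.732, 6.73% of genes). With all libraries the differences at 24.5 h and 48 h from 0 h were 0.10 and 0.10 (adjusted p = 0.899 and 0.913, 13.2% and 7.23% of genes), and without it -0.77 and -0.77 (adjusted p = 0.0142 and 0.0234).

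Leaf followed another course for NLP17, with no early fall and a build-up over the day of withdrawal. It had 3.62, 6.14 and 6.59 TPM at 0.5 h, 8.00, 9.55 and 8.19 TPM at 3 h, and 11.5, 19.9 and 11.5 TPM at 24 h, against 3.71, 3.80 and 2.51 TPM at 0 h. The libraries of 3 h and of 24 h all lay above those of 0 h, whereas those of 0.5 h overlapped them. The rise was 1.15 at 3 h (SE 0.36, adjusted p = 0.0377) and 1.79 at 24 h (SE 0.36, adjusted p = 0.00932), or 4.28 times the 0 h mean. The call at 3 h was lost when any 1 of its 6 libraries was left out (adjusted p between 0.0713 and 0.126), and the call at 24 h without 0 h replicate 3 (1.64, adjusted p = 0.0584). At 24 h NLP17 was the 1 gene of the 3 called, among 2.42% of 19882 genes.

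In leaf, NLP17 was lower at 48 h than at 24 h, and no difference from 24 h was detectable at 24.5 h. Returned nitrate and elapsed time cannot be told apart here. At 24.5 h it read 12.7, 7.18 and 12.4 TPM, against 11.5, 19.9 and 11.5 TPM at 24 h, and the overlapping groups differed by -0.37 (SE 0.36, adjusted p = 0.682; 0.302% of genes passed). It was still above 0 h by 1.41 (adjusted p = 0.0187, 4.36% of genes), a call that ended without 0 h replicate 3 (adjusted p = 0.079), 24.5 h replicate 1 (0.0844) or 24.5 h replicate 3 (0.0716). At 48 h it read 4.81, 2.97 and 3.88 TPM, against 11.5, 19.9 and 11.5 TPM at 24 h, a fall of 1.62 (SE 0.36, adjusted p = 0.00521) with no overlap. The 48 h control had 14.8 TPM in replicate 1, the library that stood apart, and 3.64 and 4.20 TPM in the others. NLP17 at 24 h exceeded this control by 1.03 (adjusted p = 0.0577, 7.93% of genes) with all libraries and by 1.59 (adjusted p = 0.0011) without replicate 1.

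**Figure D2:**
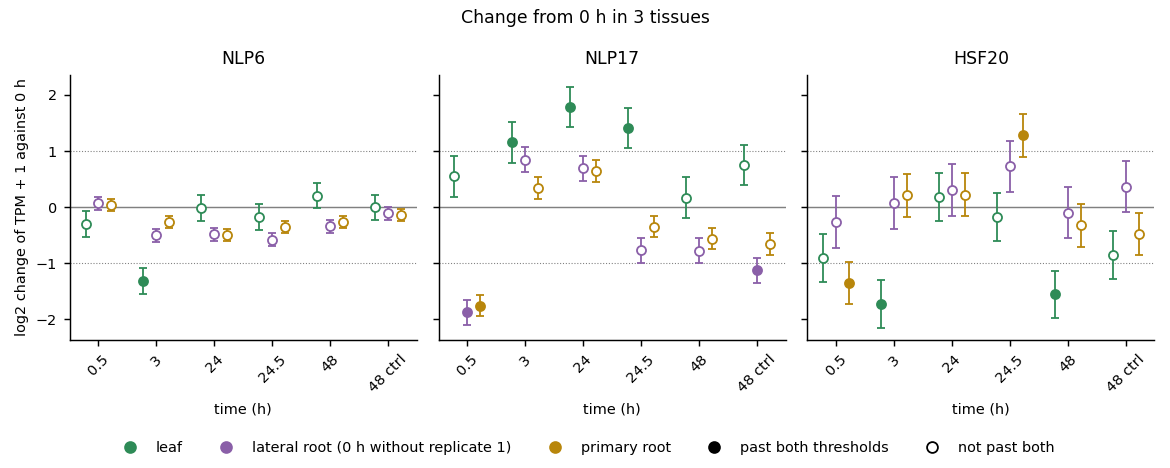
Log2 change of TPM + 1 from 0 h (y axis) at each later time (x axis) for the 3 genes, with bars of 1 SE from the limma fit. Colours are tissues, lateral root is shown without 0 h replicate 1, dotted lines mark changes of 1 and -1, and filled points passed both thresholds. NLP17 at 0.5 h is at -1.75 in primary root and -1.87 in lateral root but at 0.55 in leaf.

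NLP6 varied less, and its 1 called change against 0 h was in leaf at 3 h. It read 44.2, 59.5 and 52.3 TPM at 3 h, against 131.7, 140 and 120 TPM at 0 h. Every 3 h library was below every other leaf library, including 48 h control replicate 1 at 78.9 TPM, and the fall was -1.32 (SE 0.23, adjusted p = 0.000933), 0.398 times the 0 h mean. All 3 genes were called in this comparison, 1 higher and 2 lower, where 8.12% of genes passed, 5.54% higher and 2.58% lower. The call held without any 1 of the 6 libraries (-1.42 to -1.21) and under each of the alternatives tried. Against 0.5 h (108, 112 and 96.9 TPM) the fall was -1.02 (adjusted p = 0.0134; 3.61% of genes passed), a call that ended without 0.5 h replicate 1 (-0.9999, adjusted p = 0.0533), 0.5 h replicate 2 (-0.98) or 3 h replicate 1 (-0.91, adjusted p = 0.0643).

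By 24 h NLP6 in leaf was back among the other groups, at 107.8, 169 and 118 TPM, and its change from 0 h was -0.01 (SE 0.23, adjusted p = 0.982). At 48 h it had 160, 139 and 154 TPM. The 48 h control had 78.9, 168 and 166 TPM, and the 78.9 TPM came from the library that stood apart. In the order of leaf levels with all libraries, neighbours from 48 h down to 0.5 h overlapped, and 3 h was set off. Without that library the control came first, at 168 and 166 TPM, and did not overlap 48 h.

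NLP6 was modestly lower than at 0 h in lateral root at 3, 24 and 24.5 h, and in primary root at 24 h, below the fold threshold. Lateral root had 81.3, 93.0 and 87.9 TPM at 3 h, 83.1, 89.4 and 93.0 TPM at 24 h, and 71.0, 85.6 and 92.3 TPM at 24.5 h, against 172, 132.8 and 115 TPM at 0 h. None of these groups overlapped 0 h, and the changes were -0.66 (adjusted p = 0.0141), -0.64 (adjusted p = 0.013) and -0.74 (adjusted p = 0.00408). Without the 172 TPM of replicate 1 they were -0.50 (adjusted p = 0.0078), -0.48 (adjusted p = 0.00919) and -0.58 (adjusted p = 0.00166). Primary root had 60.4, 70.0 and 57.9 TPM at 24 h, against 89.3, 95.9 and 80.2 TPM at 0 h, a change of -0.49 (SE 0.11, adjusted p = 0.00753) with no overlap. The primary root change at 24.5 h was -0.36, with a limma adjusted p between 0.0274 and 0.184 over the settings. At 0.5 h, when NLP17 fell, NLP6 differed from 0 h by 0.04 (SE 0.11, adjusted p = 0.907) in primary root and by 0.07 (SE 0.12, adjusted p = 0.729) in lateral root without 0 h replicate 1 (-0.09, SE 0.15, adjusted p = 0.724 with it).

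HSF20, the projected regulator of NLP17, was called in leaf and primary root and in none of the lateral root comparisons. In leaf it read 1.101, 0.868 and 1.64 TPM at 3 h, against 6.03, 8.12 and 4.85 TPM at 0 h. The groups were clear of each other, and HSF20 fell by 1.73 (SE 0.42, adjusted p = 0.0101), to 0.19 times the 0 h mean, with the call kept when any 1 library was left out. At 24 h it was at 6.88, 6.03 and 8.91 TPM, and its change from 0 h was 0.18 (SE 0.42, adjusted p = 0.831). The change on log2(TPM + 1) understates a change at such low levels, and with a pseudocount of 0.1 the 3 h change was -2.31.

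Leaf HSF20 was low again at 48 h, with 0.782, 1.76 and 2.03 TPM, against 6.03, 8.12 and 4.85 TPM at 0 h. It fell by 1.55 (SE 0.42, adjusted p = 0.0245; 5.22% of genes passed, 2.06% lower, and HSF20 alone of the 3), a call that ended without 0 h replicate 1 (adjusted p = 0.0692), 0 h replicate 2 (0.102), 48 h replicate 1 (0.0896) or 48 h replicate 2 (0.0572). Against 24 h the fall was 1.74 (adjusted p = 0.00896) and NLP17 fell in the same comparison, in which 8.08% of genes passed, 3.63% lower. The 48 h control had 7.43 TPM in replicate 1, against 1.55 and 1.96 TPM in the others. Without that replicate the control too was below 0 h (-1.39, SE 0.39, adjusted p = 0.0284, 5.3% of genes) and 24 h exceeded it by 1.58 (adjusted p = 0.011, 7.32% of genes). With it these differences were -0.85 (adjusted p = 0.191, 5.71% of genes) and 1.04 (adjusted p = 0.101). Between 48 h and the control HSF20 differed by -0.70 (adjusted p = 0.486) with all libraries and by -0.16 (adjusted p = 0.989) without that replicate, and 0 of the 3 genes passed, as 0.0101% of genes did with all libraries.

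At 0.5 h the leaf libraries of HSF20 did not lie together, at 4.5, 4.87 and 0.776 TPM. The difference from 0 h was -0.90 (SE 0.42, adjusted p = 0.999). In this leaf comparison 0 of 19882 genes passed limma's test (0% called), and 562 had an unadjusted p under 0.05.

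In primary root HSF20 fell at 0.5 h beside NLP17, with 0.476, 0.637 and 0.630 TPM, against 2.51, 3.30 and 3.34 TPM at 0 h. All 3 libraries were below 1 TPM and far from 0 h, and the fall was -1.35 (SE 0.38, adjusted p = 0.0288). Leaving out 5 of the 6 libraries in turn, all but 0 h replicate 1, gave an adjusted p between 0.061 and 0.0919. At 3 h it had 3.91, 6.82 and 1.66 TPM, a rise of 1.57 over 0.5 h (SE 0.38, adjusted p = 0.0104), which ended without 3 h replicate 2 (1.19, adjusted p = 0.0601).

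The highest HSF20 levels of the series were in primary root at 24.5 h, with 15.7, 4.57 and 9.07 TPM, against 2.51, 3.30 and 3.34 TPM at 0 h. The groups did not overlap and HSF20 rose by 1.28 (SE 0.38, adjusted p = 0.0328; 5.81% of genes passed, and HSF20 alone of the 3). The call was lost without any 1 of 5 of the 6 libraries, all but 24.5 h replicate 2 (adjusted p between 0.0679 and 0.122), and was 1.26 (adjusted p = 0.0679) without replicate 3, the library that stood apart. Against 24 h (1.99, 5.70 and 4.16 TPM) the difference was 1.06 (SE 0.38, adjusted p = 0.0945; 3.8% of genes passed), and the groups overlapped. The lack of a call in lateral root held with and without 0 h replicate 1. The highest lateral root group of HSF20 was also 24.5 h, at 3.03, 4.45 and 2.15 TPM, which overlapped the 0 h libraries at 1.32, 0.426 and 3.32 TPM.

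The change from 0 h was also compared between leaf and primary root in 1 fit of all libraries, for 3 genes at 5 times. 4 of the 15 differences were called. NLP17 at 0.5 h differed most, by 2.31 (leaf minus primary root, SE 0.53, adjusted p = 0.014; 1.2% of genes passed), and at 24.5 h it differed by 1.76 (SE 0.53, adjusted p = 0.0367; 4.37% passed). At 3 h, where 5.91% of genes passed, NLP6 differed by -1.05 (SE 0.24, adjusted p = 0.00418) and HSF20 by -1.94 (SE 0.60, adjusted p = 0.0359). These calls were not robust to 2 libraries a group: without replicate 2 or without replicate 3 of every group, 0 of 15 passed, though all 4 differences kept their sign.

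HSF20 and NLP17 were compared across the 21 libraries of each tissue, because the projected edge joins them. The paper had already named this pair in a primary root loop, by Gini correlation in the same data. The primary root correlation therefore describes the pair and is no independent test of the edge. In primary root Spearman's rho of TPM was 0.592 (permutation p = 0.0056, adjusted p = 0.025 over 9 pairs of genes and tissues) and Pearson's r was 0.362 (permutation p = 0.11, adjusted p = 0.22). At 24.5 h HSF20 was highest and NLP17 was not. Without the 2 libraries farthest from the median of HSF20, r was 0.69. Both were 24.5 h libraries (15.7 and 9.07 TPM of HSF20), so this value leaves out most of the group in which the 2 genes parted. Within groups, that is for deviations from the group means, r was 0.686, and over the 7 group means it was 0.314. In leaf r was 0.399 and rho 0.30 (permutation p = 0.073 and 0.19, adjusted p = 0.22 and 0.24), with r = 0.362 without the 2 farthest libraries and r = 0.333 without 48 h control replicate 1. In lateral root without 0 h replicate 1, r was -0.012 and rho 0.14 (permutation p = 0.96 and 0.55), and r was -0.064 without the 2 farthest libraries. Libraries of 1 time point share that time point and are not independent draws.

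**Figure D3:**
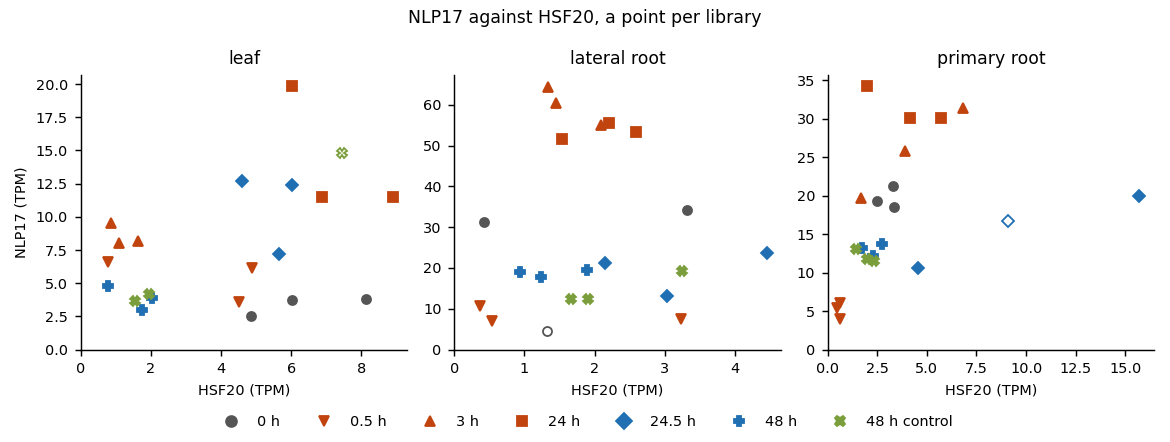
TPM of NLP17 (y axis) against TPM of HSF20 (x axis) in leaf, lateral root and primary root, a point per library, with symbols and colours for the groups and open symbols for libraries that stood apart. In primary root the 0.5 h libraries lie at the low end of both genes, whereas the 24.5 h library with 15.7 TPM of HSF20 had 19.99 TPM of NLP17.

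NLP6 and NLP17 were negatively correlated by rank across the lateral root libraries. In lateral root r was -0.567 and rho -0.644 (permutation p = 0.0064 and 0.0021, adjusted p = 0.058 and 0.019), and without 0 h replicate 1 they were -0.528 and -0.588 (permutation p = 0.018 and 0.0077). With all libraries but the 2 farthest from the median of NLP6, r was -0.472. Once 0 h replicate 1 was left out, r was -0.053 within groups and -0.541 over the 7 group means. In primary root r was -0.51 and rho -0.468 (permutation p = 0.017 and 0.034, adjusted p = 0.076 and 0.077), r was -0.516 without the 2 farthest libraries, and within groups it was 0.226. In leaf r was -0.18 and rho -0.323 (permutation p = 0.43 and 0.15), and r was -0.208 without the 2 farthest libraries. HSF20 and NLP6 gave an adjusted p between 0.059 and 0.75 in the 3 tissues by either measure.

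NLP7, a further NLP of the projected network, also changed in lateral root. It had 71.1 ± 4.0 TPM at 3 h and 22.9 ± 3.0 TPM at 0.5 h (SD, n = 3), a rise of 1.60 (SE 0.24, adjusted p = 0.000425). It had 21.9 ± 8.4 TPM at 24.5 h and 45.1 ± 2.5 TPM at 24 h, a fall of 1.08 (SE 0.24, adjusted p = 0.026). In leaf and primary root none of the comparisons called NLP7. Its levels ran between 30.9 and 90.0 TPM in leaf and between 15.3 and 39.4 TPM in primary root.

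HSF20 was not the only HSF to change at these times. Of the 4 other HSFs of the network, HSF10, HSF13 and HSF24 all rose in primary root at 24.5 h, and HSF26 (0.17) did not pass, where 3.78% of all genes rose. HSF13 had 12.6 ± 3.6 TPM at 24.5 h and 2.59 ± 0.32 TPM at 0 h, a rise of 1.89 (SE 0.33, adjusted p = 0.00119), and HSF24 had 48.7 ± 20.5 TPM and 12.6 ± 2.9 TPM, a rise of 1.82 (SE 0.29, adjusted p = 0.000499). HSF10 rose by 1.08 (SE 0.22, adjusted p = 0.00346). The median change of the 4 was 1.45, beside -0.03 over all genes, and without 24.5 h replicate 3 it was 1.62 with the count still 3 of 4 (5.51% of genes passed). HSF13 and HSF24 also exceeded 24 h, by 1.84 (adjusted p = 0.00292) and 1.72 (adjusted p = 0.00182).

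At 0.5 h in primary root 1 of these 4 fell, where 3.14% of all genes did: HSF10, at 4.22 ± 0.47 TPM, against 9.49 ± 0.66 TPM at 0 h (-1.01, adjusted p = 0.00574), and the median of the 4 was -0.96, beside -0.08 over all genes. In leaf at 3 h 1 of 4 fell, where 2.58% of all genes did: HSF13 had 11.3 ± 3.2 TPM, against 78.6 ± 20.4 TPM at 0 h (-2.69, SE 0.35, adjusted p = 9.82e-05), beside HSF20. In leaf at 48 h 2 of 4 fell, where 2.06% of all genes did, HSF13 (-1.54, adjusted p = 0.00719) and HSF24 (-1.73, adjusted p = 0.00315). HSF13 was also called lower in the 48 h control than at 0 h (-1.08, adjusted p = 0.0485), and between 48 h and the control neither HSF13 (-0.47, SE 0.35, adjusted p = 0.574) nor HSF24 (-0.82, SE 0.34, adjusted p = 0.34) was called. In lateral root with all libraries, HSF10 was called lower than 0 h at 0.5 h (-1.38, adjusted p = 0.0393, 8.65% of genes). HSF24 was called higher than 0 h at 3 h (1.61, adjusted p = 0.00143, 6.87%) and 24.5 h (1.04, adjusted p = 0.0122, 13.2%). HSF13, HSF26 and HSF20 were not called there, and these fits hold the 0 h library that stood apart.

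**Figure D4:**
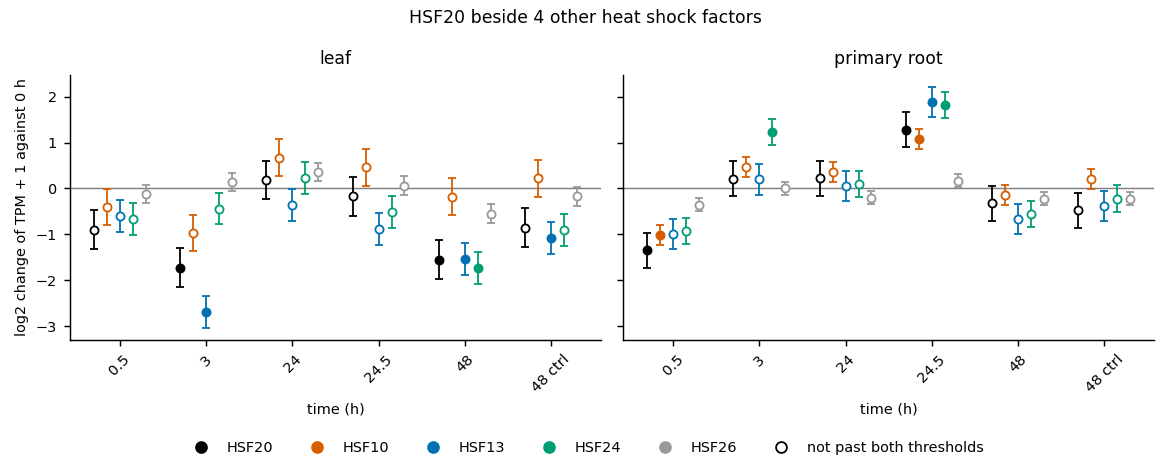
Log2 change of TPM + 1 from 0 h (y axis) at each later time (x axis) for HSF20 and 4 other heat shock factors in leaf and primary root, with bars of 1 SE and filled points where both thresholds were passed. At 24.5 h in primary root HSF20, HSF10, HSF13 and HSF24 lie between 1.08 and 1.89, and HSF26 at 0.17.

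The projected targets of the 3 genes, NLP17 aside, number 10. The edges came from enhanced yeast one-hybrid assays in maize carried over to sorghum by orthology, and binding in sorghum was not measured. All 3 genes are joined to a pair of genes named NRT2.1, high-affinity nitrate transporters, written here as NRT2.1-a (SORBI_3004G009400) and NRT2.1-b (SORBI_3004G009500). NLP6 and NLP17 share NIR1 (SORBI_3004G309300), the nitrite reductase that turns nitrite into ammonium in plastids. NLP17 is also joined to GLB1 (SORBI_3001G449600), a symbol used for a class of plant hemoglobins, and to NPF4.9 (SORBI_3006G130600), of the NPF family of transporters, which it shares with HSF20. The other targets of HSF20 are NR3, a nitrate reductase, 3 genes named GOGAT2, glutamate synthases written with the suffixes a to c, and PP96. The suffixes were added here, and reads of near-identical family members may have been shared between them.

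NR3 did not pass the filter in any tissue, and NRT2.1-b and NPF4.9 did not in leaf, which left 9 targets tested in each root and 7 in leaf. In primary root 4 rose and 1 fell at 24.5 h and 3 rose and 1 fell at 24 h, where 3.78% and 2.04% of all genes rose and fell at 24.5 h and 2.38% and 2.12% at 24 h. The median changes over the 9 were -0.23 and -0.14, beside -0.03 and -0.09 over all genes. In leaf 0 rose and 2 fell at 3 h, at 24 h and at 48 h, and 2.58%, 1.14% and 2.06% of all genes fell. GOGAT2-a, GOGAT2-b, GOGAT2-c and PP96 passed in none of the comparisons of any tissue.

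The NRT2.1 genes rose by more than any of the 3 TF genes did and were still high 0.5 h after nitrate was returned. In primary root NRT2.1-a had 152, 101.3 and 120 TPM at 24 h and 302, 166 and 261 TPM at 24.5 h, against 4.64, 5.85 and 3.78 TPM at 0 h. It rose by 4.44 (adjusted p = 1.03e-07) and 5.38 (adjusted p = 6.8e-09), and at 48 h it was at 0.271, 0.334 and 0.200 TPM, below 0 h by -2.17 (adjusted p = 0.000319). The 48 h control was as low, at 0.180 to 0.389 TPM, so the level below 0 h was shared with the control. Both groups lay under 1 TPM. The libraries of each of these groups were clear of 0 h. In lateral root without 0 h replicate 1 it rose by 5.45 at 24 h (adjusted p = 1.56e-06) and by 6.54 at 24.5 h (adjusted p = 2.53e-07). NRT2.1-b rose at the same times in both roots, by 3.65 and 4.17 in primary root (adjusted p = 5.22e-06 and 1.3e-06). At 0.5 h in primary root, where NLP17 and HSF20 fell, NRT2.1-b fell by 1.07 (adjusted p = 0.0417) and NRT2.1-a, at 1.42, 5.31 and 3.02 TPM, overlapped 0 h and was not called.

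NIR1 was lower at 3 h of withdrawal than at 0 h and rose sharply 0.5 h after nitrate was returned in both roots, when NLP17 was below its 24 h level. In primary root it had 96.9, 113.5 and 89.4 TPM at 3 h, against 465, 619 and 551 TPM at 0 h, a fall of 2.43 (SE 0.17, adjusted p = 4.93e-07) with no overlap. It had 1654, 1144 and 1157 TPM at 24.5 h, against 358, 313 and 311 TPM at 24 h, a rise of 1.99 (SE 0.17, adjusted p = 4.24e-06), and all 3 libraries stood above the 0 h level. In lateral root it fell by 1.77 at 3 h against 0 h (adjusted p = 0.00422) with all libraries. The mean was 109 TPM at 3 h, against 398 TPM at 0 h, or 389 TPM without 0 h replicate 1. By 24 h of withdrawal the mean was 387 TPM, and NIR1 rose by 2.00 at 24.5 h against 24 h (adjusted p = 0.00325). In leaf it fell by 2.58 at 3 h (mean 136 TPM at 3 h and 816 TPM at 0 h, adjusted p = 8.98e-05), in the comparison where NLP6 and HSF20 fell and NLP17 rose.

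GLB1 was lowest in both roots at 3 h. In primary root it had 109, 134 and 97.7 TPM at 3 h, against 1009, 536 and 601 TPM at 0 h, a fall of 2.60 (SE 0.34, adjusted p = 0.00014). In lateral root it had 77.9, 109 and 112 TPM at 3 h, against 4.61, 1156 and 618 TPM at 0 h, and the 4.61 TPM again came from the library that stood apart, whose value lay near the leaf range of 2.18 to 21.98 TPM. Without it GLB1 fell by 3.09 at 3 h (adjusted p = 1.13e-05), and with it none of the lateral root comparisons called GLB1. NPF4.9 rose by 1.02 in primary root (adjusted p = 0.00746) and by 1.77 in lateral root (adjusted p = 0.0152, all libraries) at 24 h. Its lateral root mean was 5.89 TPM at 24 h, against 1.09 TPM at 0 h with all libraries and 1.43 TPM without 0 h replicate 1. The lateral root mean was 4.04 TPM at 48 h and 1.17 TPM in the 48 h control. In primary root the mean was 1.05 TPM at 0 h and 3.20 TPM at 24 h. There it was 3.47 TPM at 48 h and 2.73 TPM in the control, so the higher level was not confined to withdrawal.

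**Figure D5:**
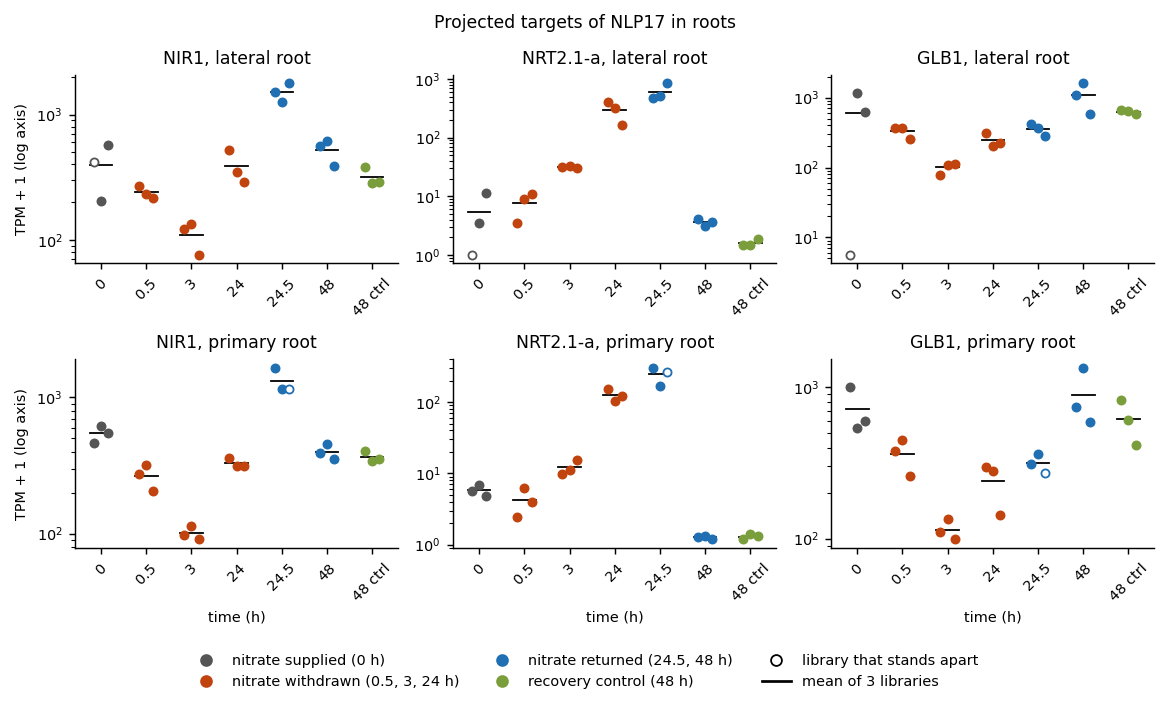
TPM + 1 on a log axis for NIR1, NRT2.1-a and GLB1 in lateral root (top) and primary root (bottom) at each time, a point per library with the mean as a bar and open points for libraries that stood apart. NRT2.1-a is highest at 24 and 24.5 h, NIR1 at 24.5 h in all libraries, and GLB1 is low at 3 h, at 97.7 to 134 TPM in primary root.

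Over the libraries of a tissue, a Gini correlation past 0.5 in either direction was counted for each edge whose genes both passed the filter, as a description with no test. Of the 3 edges from NLP6, both to NRT2.1 genes were negative in lateral root (-0.74 and -0.761; -0.701 and -0.743 without 0 h replicate 1) and in primary root (-0.742 and -0.757). That to NRT2.1-a in leaf was -0.665, but NRT2.1-a had a leaf median of 0.103 TPM and was at 0 in 4 libraries. Spearman's rho of that leaf edge was -0.178. The edge to NIR1 in lateral root was -0.499, and -0.513 without 0 h replicate 1. Within groups the root values of r for the NRT2.1 edges were between 0.041 and 0.239. Of the 5 edges from NLP17, those to NRT2.1-a and NRT2.1-b were positive in primary root (0.548 and 0.602) and in lateral root (0.534 and 0.578; 0.478 and 0.528 without 0 h replicate 1), that to GLB1 was negative in lateral root (-0.501; -0.679 without 0 h replicate 1), and none of 3 passed in leaf. Of all genes, 12.8% had a Gini correlation over 0.5 with NLP17 in primary root and 18% in lateral root, and 15.5% one under -0.5 in lateral root. With NLP6, 16.7% were under -0.5 in lateral root, 10.9% in primary root and 15% in leaf.

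The strongest edges from HSF20 were to the NRT2.1 genes in primary root. HSF20 correlated with NRT2.1-a at a Gini correlation of 0.793 and with NRT2.1-b at 0.788, with r of 0.654 and 0.746 within groups, and with NLP17 at 0.599. These made 3 of 8 edges in primary root, whereas 1 of 6 passed in leaf (GOGAT2-c, 0.557) and 1 of 8 in lateral root (NRT2.1-a, 0.516; 0.484 without 0 h replicate 1). Of all genes, 14.5% had a Gini correlation over 0.5 with HSF20 in primary root, 7.44% in leaf and 2.28% in lateral root. The points share their time point and the scaling of their library, and the precision of values as low as those of HSF20 is unknown.

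NLP17 and HSF20 were not each other's nearest pattern in any tissue. By Pearson's r of log2(TPM + 1) over the 21 primary root libraries, NLP17 ranked 632 of 23186 tested genes for likeness to HSF20 (r = 0.636), whose most alike gene was SORBI_3001G064500 (r = 0.913). For NLP17 the most alike genes were SORBI_3001G002400 in primary root (r = 0.934), SORBI_3001G093300 in lateral root without 0 h replicate 1 (r = 0.951) and SORBI_3010G015500 in leaf (r = 0.933). For NLP6 they were SORBI_3009G242100 in leaf (r = 0.975), SORBI_3003G407900 in lateral root (r = 0.933) and SORBI_3001G473900 in primary root (r = 0.869). For HSF20 they were SORBI_3002G249500 in leaf (r = 0.855) and SORBI_3008G159100 in lateral root (r = 0.795).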

How the data were processed

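Per the labels, polyadenylated RNA was sequenced in pairs of reads and processed by the authors with Trimmomatic, STAR, StringTie and DESeq2, whose versions are not given in the sources used here. The deposited values are TPM per gene, computed by the authors, and each column sums to 1000000, so no read counts or depths were used. Columns were matched to samples by name, and 0 pairs of libraries were identical.

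For each tissue, genes with at least 1 TPM in at least 3 libraries were taken to log2(TPM + 1) and fitted by limma 3.58.1 under R 4.3.3 (group means, eBayes with a trend, two-sided), 21 libraries together, with Benjamini-Hochberg adjustment over all genes tested. The comparisons with 0 h share its 3 libraries, and no correlation between them is given. Comparisons of 3 h with 0.5 h, of 48 h with 24 h and of 24 h with the control were added after seeing the data. Tissues were compared in 1 fit of the 18323 genes that passed in all 3, and its tissue levels leave out 0 h. Libraries are pools of plants, and p-values measure the spread between these pools. Correlations used 100000 permutations, two-sided, in Python 3.11.15 with SciPy 1.17.1 and NumPy 2.4.6, and the smallest p they can give was not reached. Scripts were tested on simulated data.

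Genes were named by rule: the 3 genes, their projected targets, NLP7, 4 HSFs, the regulator with the largest absolute r, and the most alike genes by ID, of which the first of 3 is printed. The genes and lists were chosen with earlier results of these data known. Other settings were 0.1 as the pseudocount, no filter, a mean of at least 5 TPM, 2 other scalings, a replicate block, no trend, only the groups compared, and each library left out. Sequences were not used here.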

Additional observations from a re-analysis of the deposited data

Results flagged for a closer look

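4 changes from 0 h differed between leaf and primary root by the test of the difference itself in 1 fit of all libraries. NLP17 at 0.5 h differed by 2.31 (leaf minus primary root, SE 0.53, adjusted p = 0.014), with changes of 0.55 in leaf and -1.75 in primary root. NLP17 at 24.5 h differed by 1.76 (SE 0.53, adjusted p = 0.0367), with changes of 1.41 in leaf and -0.35 in primary root. NLP6 at 3 h differed by -1.05 (SE 0.24, adjusted p = 0.00418), with changes of -1.32 in leaf and -0.27 in primary root. HSF20 at 3 h differed by -1.94 (SE 0.60, adjusted p = 0.0359), with changes of -1.73 in leaf and 0.21 in primary root. Both tissues were harvested at the same hours, and time of day cannot be told apart from nitrate withdrawal in either. With 3 samples a group, no gene's values were tested for a single outlying sample.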

How the results depend on the processing

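Of 670 values of 51 results by gene and comparison under the alternatives, 568 kept their direction and side of the threshold, 70 lost the call, 23 gained one and 9 changed sign. The genes called over 24 pairs of gene and comparison numbered 6 (leaf), 2 (lateral root) and 3 (primary root). In lateral root the count was 1 with a pseudocount of 0.1, 0 with no filter, 4 with quantile normalization, 1 with only the groups compared and 6 by adjusted p alone. In primary root it was 1 with no filter, 1 with a mean of at least 5 TPM, under which HSF20 was not tested, and 7 by adjusted p alone. With single libraries left out it ran between 3 and 7 for leaf, 0 and 3 for lateral root, and 1 and 4 for primary root. Calls of tissue levels numbered 1 of 9, 2 with median-of-ratios scaling and 0 with quantile normalization. The call of NLP17 between leaf and lateral root was lost with both scalings, so the 2 were other pairs of gene and contrast. Calls of changes between leaf and primary root numbered 4 of 15, and 0 to 3 with a replicate number left out. The correlations with an adjusted p under 0.05 by Pearson's r numbered 0 of 9, 3 on deviations from group means, 3 on log2 values, 1 by Gini correlation and 0 to 1 with libraries left out. In lateral root the changes of NLP17 from 0 h changed sign at 24.5 h (0.10; -0.039 with median-of-ratios scaling, -0.10 with quantile normalization, -0.77 to 0.57 with libraries left out), at 48 h (0.10; -0.10, -0.19, and -0.77 to 0.56) and in the control (-0.25; -1.12 to 0.21). Among correlations, HSF20 with NLP17 in lateral root (0.025) was -0.044 over group means, -0.04 with median-of-ratios scaling and -0.138 to 0.269 with libraries left out. On deviations from group means HSF20 with NLP6 was -0.548 in leaf and 0.373 in primary root, and NLP6 with NLP17 was 0.226 in primary root. NLP6 with NLP17 in leaf was 0.012 without the control libraries. The cause of these shifts was not tested. Replicate numbers did not pair the libraries: the mean correlation of same-numbered deviations was -0.03 (leaf), -0.018 (lateral root) and -0.009 (primary root), with 7, 11 and 21 of 63 pairs over 0.1. With a replicate block the calls numbered 5 (leaf), 2 (lateral root), 3 (primary root), 1 of tissue levels and 4 of changes between tissues, and 1 of the 51 results lost its call, NLP17 in leaf at 3 h (1.15, adjusted p = 0.0502). Median-of-ratios scaling moved the median of all genes against 0 h by -0.128 to -0.259 in lateral root and by -0.138 at 3 h and -0.14 at 24 h in leaf. TPM keep no depth, so the precision of low values such as those of HSF20 is unknown.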

Other observations

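The projected network also places 40 TFs upstream of NLP17 and 30 upstream of NLP6. Of the 40 edges into NLP17, 14 had a Gini correlation over 0.5 and 6 one under -0.5 in primary root, 8 and 8 in lateral root without 0 h replicate 1, and 8 and 2 of 32 in leaf. Of all genes that passed the filter, 12.8% were over 0.5 and 8.64% under -0.5 with NLP17 in primary root, 14.3% and 14.2% in lateral root without that library, and 24.8% and 3.67% in leaf. The largest absolute r with NLP17 was that of MYB8 in primary root (r = 0.925, and 0.762 within groups), MYB152 in lateral root (r = 0.856, and 0.134 within groups without 0 h replicate 1) and bZIP21 in leaf (r = 0.779, and 0.418 within groups). Each was picked as the largest among the projected regulators, HSF20 included, so a lower r of HSF20 follows from the choice. The r of HSF20 with NLP17 was 0.362 in primary root, -0.012 in lateral root without 0 h replicate 1 and 0.399 in leaf.

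Of the edges into NLP6, 5 of 28 were over 0.5 and 2 under -0.5 in primary root, 6 and 3 of 27 in lateral root without 0 h replicate 1, and 4 and 2 of 23 in leaf. Of all genes, 8.29% were over 0.5 and 10.9% under -0.5 with NLP6 in primary root, 16.1% and 11% in lateral root without that library, and 12.9% and 15% in leaf. The largest absolute r with NLP6 was that of EREB71 in primary root (r = 0.867, and 0.707 within groups), EREB204 in lateral root without 0 h replicate 1 (r = 0.775, and 0.203 within groups) and TCP4 in leaf (r = 0.859, and 0.679 within groups). Each is the largest of many values and was given no test.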
